A study of Mus musculus with 12 samples.

Results

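The step from 2 h to 5 h in tunicamycin (Tm) was read by setting the 3 arrays taken at 5 h against the 3 taken at 2 h, 6 of the 12 arrays of the study, over all 717 probe sets that read a mature mouse miRNA. The arrays were taken by their labels and the probe sets by their names. The cells were NIH3T3, an immortal line of mouse embryonic fibroblasts, kept in Tm at 2 μg per ml for 2, 5 or 10 h, with 3 arrays before Tm (0 h) and 3 at each of the other times. There were no arrays of untreated cells at 2, 5 or 10 h, so Tm cannot be told apart from time in culture, and neither the labels nor the methods say whether the 3 arrays of a time were separate cultures. All p-values thus cover the spread of the arrays alone, and that spread may be technical. Total RNA was hybridised to GeneChip miRNA arrays, and each value is the deposited log2 value of a probe set.

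Fibroblast miRNAs were high, and some miRNAs of other cell types were also read. All 9 fibroblast miRNAs of the list used, among them miR-199a, miR-214, miR-145 and miR-22, were above the array background, and the log2 of their summed linear level lay between 16.51 and 16.52 at 2 h and between 16.48 and 16.52 at 5 h. Of 6 blood miRNAs, 5 were below background at both times, with a summed level between 4.58 and 4.88 at 2 h and between 4.63 and 4.69 at 5 h, and none was called in the step, nor were any of 4 neural or 4 muscle miRNAs. The neural miRNAs miR-128 and miR-9 were above background on all arrays of both times, with a summed level of the 4 between 7.20 and 7.36. The 7 epithelial miRNAs had a summed level between 9.64 and 9.77 at 0 h, mostly miR-205, and fell through 2 h and 5 h as given with that miRNA. The second array at 5 h and that at 0 h stood apart most, with 124 and 110 of the 717 probe sets at least 0.5 on the log2 scale from the other arrays of their time, against 40 to 79 for the other arrays at 2 h and 5 h. Results that rest on them are given with and without them. Array medians over the 717 lay between 3.42 and 3.65 at 2 h and 5 h.

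Tunicamycin blocks N-linked glycosylation, so that proteins fail to fold in the endoplasmic reticulum (ER) and the unfolded protein response (UPR) starts. MiRNAs are short RNAs cut from hairpin precursors, and each pairs with its target mRNAs mainly through its seed, the bases 2 to 8 from the 5′ end. MiRNAs with the same seed share many targets, and those of 1 cluster are cut from 1 primary transcript, so both groupings were followed through the step. Mature strands are stable in many cells, and their level depends on transcription, processing and decay.

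The sequences shown are those of the seed families and hairpins in which the step was clearest, since the results below compare miRNAs that differ outside the seed. Sequences came from RefSeq (GRCm38.p6), run 5′ to 3′, and have the seed in capitals. RefSeq names matched 451 of the 717 miRNAs and 60 of the 77 that passed the test in the step. The first set holds the seed shared by the miR-17 to miR-92a cluster on chromosome 14 and its paralogs on chromosomes 5 and X.
miR-17: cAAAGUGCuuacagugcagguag
miR-20a: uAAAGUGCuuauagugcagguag
miR-20b: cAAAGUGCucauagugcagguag
miR-106b: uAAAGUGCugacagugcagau
miR-93: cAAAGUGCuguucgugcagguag
The miR-27 pair, from clusters on chromosomes 8 and 13, has 1 seed and differs near the 3′ end, and the miR-10 pair, from chromosomes 11 and 2, differs in the middle. MiRNAs so alike differ at few bases, so a probe set may also read RNA of a close relative. This was not tested, and calls of close relatives cannot be taken as independent.
miR-27a: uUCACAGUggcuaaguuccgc
miR-27b: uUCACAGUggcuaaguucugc
miR-10a: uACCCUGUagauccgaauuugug
miR-10b: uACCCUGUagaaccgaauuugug
The miR-15/16 and miR-30 seeds are shown because miRNAs that carry them were called in both directions.
miR-15a: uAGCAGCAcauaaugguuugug
miR-195: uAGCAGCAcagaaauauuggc
miR-497: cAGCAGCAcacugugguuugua
miR-15b: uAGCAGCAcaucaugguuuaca
miR-30a: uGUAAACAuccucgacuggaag
miR-30c: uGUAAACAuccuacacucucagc
The arms of the miR-324 hairpin on chromosome 11 are shown because they moved apart. MiR-18a, with a seed close to that of miR-17, miR-205, an epithelial miRNA, and miR-1187, which is mostly alternating U and G, had some of the largest steps.
miR-324-5p: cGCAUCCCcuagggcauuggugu
miR-324-3p: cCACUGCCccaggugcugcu
miR-18a: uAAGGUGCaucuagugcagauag
miR-205: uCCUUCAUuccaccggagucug
miR-1187: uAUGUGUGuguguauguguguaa

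Between 2 h and 5 h, 42 miRNAs rose and 35 fell, together 10.7% of the 717 tested (5.86% higher and 4.88% lower). A miRNA was called where its adjusted p was under 0.05 in limma, after Benjamini-Hochberg adjustment over the 717, with all 12 arrays sharing 1 estimate of the spread. At an unadjusted p under 0.05 there were 148. The smallest p of an exact permutation test on 3 and 3 arrays is 0.1, and the calls draw on the spread pooled in limma. The changes were small: the median called rise was 1.33-fold and the median called fall 1.3-fold, and 30 of the 42 and 27 of the 35 were under 1.5-fold. The 3 arrays at 5 h did not overlap the 3 at 2 h for 182 probe sets (25.4%), a looser rule met by all of the 77 called except miR-181a. Without the second 5 h array, 38 were called higher and 29 lower, and 63 of the 77 remained. With the arrays shifted to 1 median the counts were 33 and 18, so that 64.7% of calls were rises in place of 54.5%.

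Calls came almost wholly from abundant miRNAs. Of the brighter 359 probe sets 72 were called (20.1%), and of the dimmer 358 only 5 (1.4%). The background limit of an array was taken as its most frequent value plus 3 times the spread below it, and lay between 2.96 and 3.22 at these times. Of the 352 probe sets above it on all 6 arrays, 69 were called. The median standard error of the step was 0.105 among these and 0.179 among the rest.

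Many calls of the step ran against the change at 2 h. At 2 h, 53 miRNAs were higher than at 0 h (7.39%) and 42 lower (5.86%). Of the 42 early dips 24 rose in the step, 3 fell further and 15 were not called, and of the 53 early rises 20 fell, 2 rose further and 31 were not called. In all, 44 of the 77 step miRNAs were such recoveries or reversals, 16 rose and 12 fell without a call at 2 h, and 5 went on in the early direction. Both differences contain the same 2 h arrays, so an error common to those arrays would move them in opposite directions, and how many such calls that sharing alone gives was not tested. The share also depended on the processing. With the arrays shifted to 1 median there were 14 recoveries among 33 rises and 4 reversals among 18 falls, without a variance trend 13 among 29 and 8 among 20, and without the first 2 h array 17 among 36 and 11 among 28. The levels at 5 h and 10 h against 0 h, which do not contain the 2 h arrays, are given beside each group. They cannot decide this, since an error in the 2 h arrays would also leave the 5 h level near that of 0 h. The difference of 5 h from 0 h also shares the 5 h arrays with the step and the 0 h arrays with the early change.

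**Figure D1:**
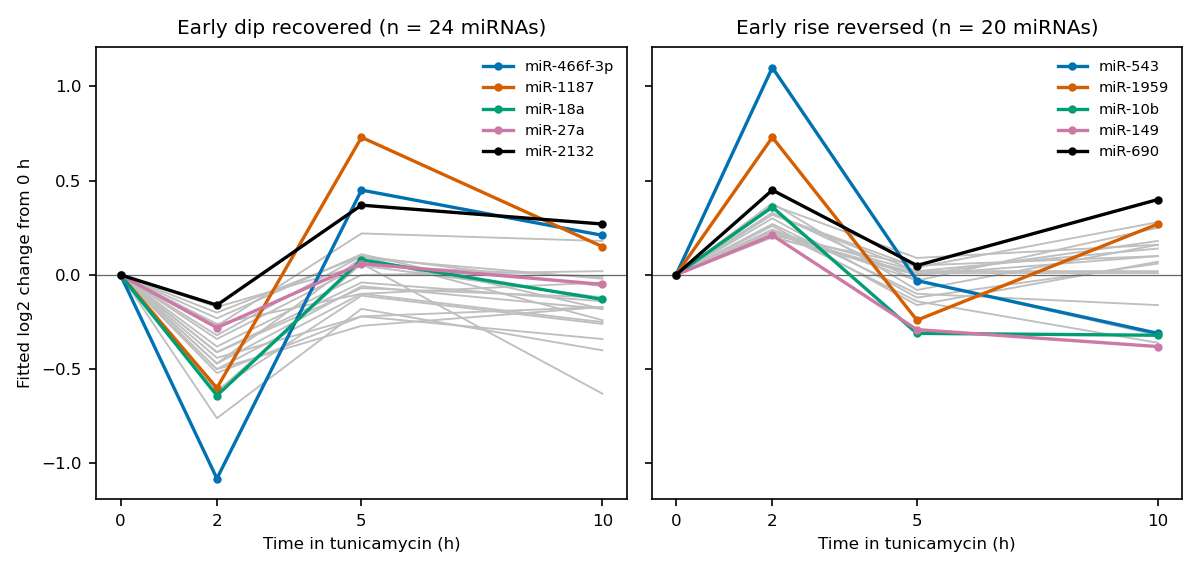
Fitted log2 change from 0 h (y axis) against time in tunicamycin in hours (x axis) for the 24 miRNAs called lower at 2 h and higher in the step (left) and the 20 called higher at 2 h and lower in the step (right). Each line is 1 miRNA, with 5 coloured in each panel. Most lines lie closer to 0 at 5 h than at 2 h. On the left miR-1187 passes to 0.73 above 0, and on the right miR-10b passes to −0.31 and miR-149 to −0.29.

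Among the 24 recovered dips the median step was a rise of 0.39 on the log2 scale, from 0.16 to 1.54, after a median early difference of −0.43. All 24 had 5 h arrays that lay above the 2 h arrays, and 23 were above the background limit at both times. At 5 h their median difference from 0 h was 0.05. Against 0 h, 19 were not called at 5 h, 3 were higher and 2 lower, and at 10 h 18 were not called, 1 was higher and 5 lower. The step was 112% of the early dip in the median, from 46.6% for miR-20b to 333% for miR-2132. Without the second 5 h array, 23 of the 24 kept both calls, the exception being miR-2132. Without the second arrays of both 0 h and 5 h 19 did, and with the arrays shifted to 1 median 13 did.

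The miR-17 to miR-92a cluster, a MYC target whose products favour proliferation, held 4 of these recoveries among its 6 measured members. These made 66.7% called higher, against 5.86% of all tested. All 6 members were above background on all 6 arrays, where 19.6% of probe sets were called in either direction. MiR-18a read 10.94, 10.89 and 10.95 on the 3 arrays at 0 h, 10.34, 10.31 and 10.21 at 2 h, then 11.04, 11.02 and 10.96 at 5 h. No array at 5 h overlapped 2 h, and the 5 h arrays lay just above those of 0 h. The step was 0.72 (standard error 0.0587, 1.65-fold, adjusted p = 8.7e-07 in limma), and against 0 h it stood at 0.08 after 5 h and −0.13 after 10 h, neither of them called. It was the largest step among miRNAs with a mean log2 value above 10 at both times.

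MiR-20a, which with miR-17 restrains E2F1, read 12.57, 12.61 and 12.56 at 2 h and 12.95, 12.95 and 12.96 at 5 h, a rise of 0.37 (adjusted p = 1.8e-06 in limma) that left it at a fitted difference of 0 from 0 h. MiR-19b went from 11.85, 11.78 and 11.93 to 12.09, 12.13 and 12.24. Its step of 0.30 (adjusted p = 0.0038 in limma) was called while its level at 5 h was still 0.22 below 0 h (adjusted p = 0.04). MiR-17 itself rose least, by 0.16 from a mean of 13.12 ± 0.03 to 13.28 ± 0.03 (SD, n = 3 arrays), and that call was lost with either other scaling (adjusted p of 0.0028 as deposited). The remaining members were miR-19a, with a dip at 2 h and a step of 0.46 at an adjusted p of 0.094 in limma, and miR-92a, with −0.06 and no dip. The other arm of the miR-18a hairpin, miR-18a*, had a step of −0.16 that was not called, and the difference between the arms was not tested. The step of miR-18a was called under all 20 alternatives run, and so was that of miR-20a.

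The paralog clusters added miR-106b and miR-20b among 7 measured (28.6% called higher, against 5.86% of all tested). MiR-106b, cut from an intron of Mcm7, had 11.48, 11.32 and 11.42 at 2 h and 11.77, 11.87 and 11.80 at 5 h, so that all 3 arrays at 5 h lay above those at 2 h, and its step was 0.41 (adjusted p = 5.1e-05 in limma). MiR-20b regained 0.23 of an early fall of 0.50 and was still called lower than 0 h at 5 h. MiR-93 and miR-25, from the same transcript as miR-106b, had steps of 0.01 and −0.07 at adjusted p of 0.92 and 0.41 in limma, and neither had dipped at 2 h. Within the AAAGUGC seed, 4 of 6 miRNAs above background rose, and miR-93 and miR-106a lay between −0.04 and 0.01. MiR-17, miR-20a and miR-20b differ at few bases, so their probe sets may read RNA of each other. The calls within this seed cannot be taken as independent. Of all probe sets above background on all 6 arrays, 19.6% were called in either direction.

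The miR-23/27/24 clusters, known in angiogenesis and lipid metabolism, had 6 of 9 members called higher (66.7%, against 5.86% of all tested) and none lower. All 9 were above background on all 6 arrays, where 19.6% of probe sets were called in either direction. Without the second 5 h array 5 were called higher, and with the arrays shifted to 1 median 3. MiR-27a read 12.91, 12.98 and 12.96 at 2 h and 13.30, 13.30 and 13.29 at 5 h. The gap between the times was wider than the range of either, with a step of 0.35 (standard error 0.0282, adjusted p = 8.7e-07 in limma) and a difference from 0 h of 0.06 that was not called. MiR-27b, with the same seed, rose by 0.22 (adjusted p = 0.00055 in limma, 0.081 with the arrays shifted to 1 median).

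The other strand of the miR-27a hairpin also rose in the step, but had not dipped at 2 h, and the difference between the strands was not tested. MiR-27a* read 8.18, 8.08 and 8.23 at 2 h, level with 8.01, 8.03 and 8.21 at 0 h, and 9.06, 9.04 and 8.88 at 5 h. All 5 h arrays were above all arrays at 0 h and 2 h. Its step of 0.83 (1.78-fold, adjusted p = 4e-06 in limma) therefore took it above 0 h, and it stayed 0.58 higher at 10 h (adjusted p = 0.00016). MiR-24-2*, from the same chromosome 8 transcript, dipped by 0.27 and then rose by 0.49 to 0.22 above 0 h (adjusted p = 0.028). MiR-24, the abundant strand, had a step of 0.05 at an adjusted p of 0.32 in limma. MiR-23a and miR-23b were called higher at 0.10 and 0.09, but at mean levels above 14. The step of miR-23a was 0 under quantile normalization and lost its call without the third 2 h array (adjusted p = 0.054), and that of miR-23b lost its call under 14 of 20 alternatives, among them leaving out any of the 2 h arrays.

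**Figure D2:**
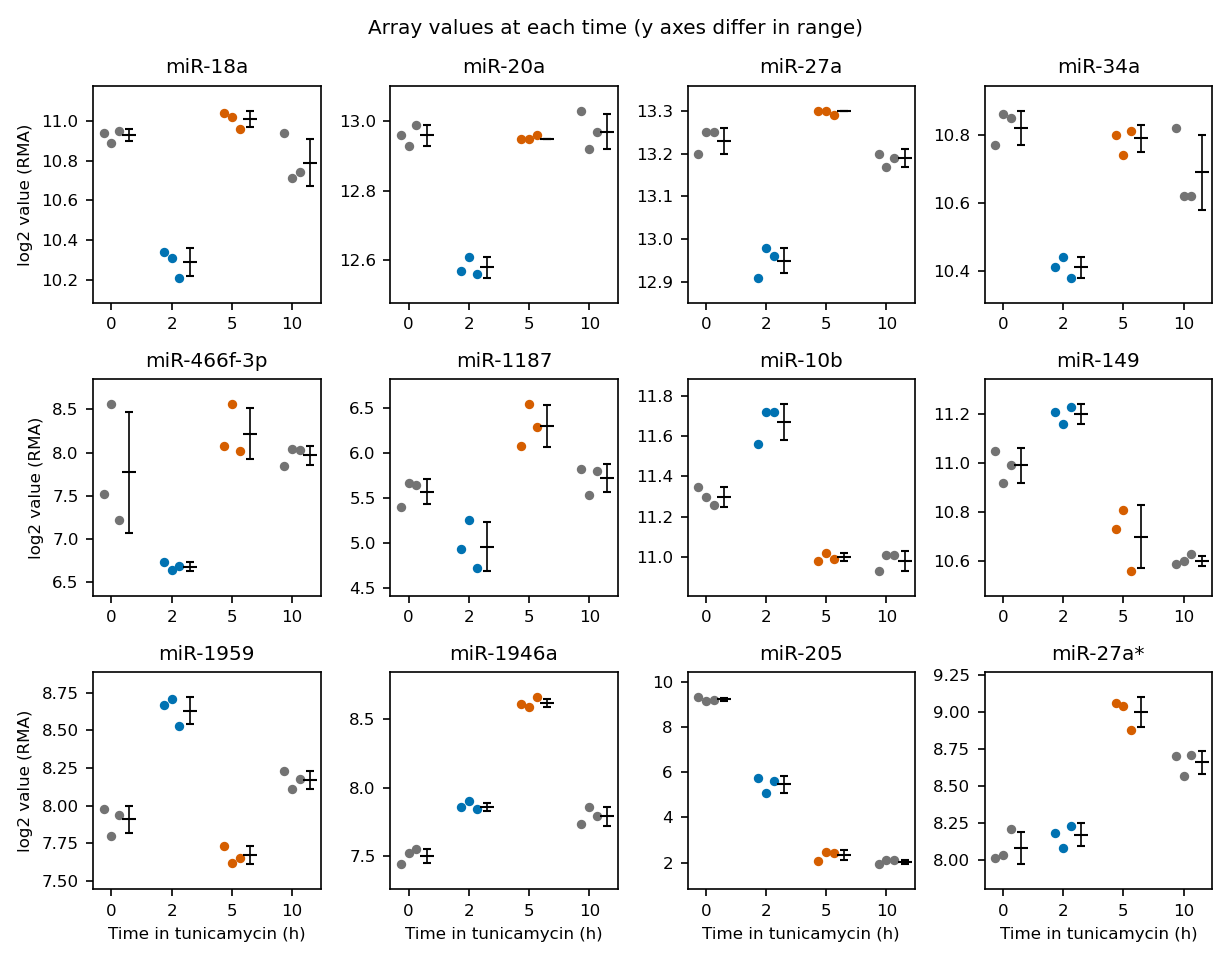
Log2 value (y axis) of 12 miRNAs on each of the 12 arrays, by time in tunicamycin in hours (x axis). Points are single arrays, blue at 2 h and orange at 5 h, and the bar beside them is the mean with its SD over 3 arrays. In each panel the 2 h and 5 h arrays do not overlap, and the second 0 h and 5 h arrays of miR-466f-3p, both at 8.56, lie above the others of their times.

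MiR-34a and miR-34c, which p53 induces and which slow the cell cycle, dipped and recovered in parallel. MiR-34a read 10.41, 10.44 and 10.38 at 2 h and 10.80, 10.74 and 10.81 at 5 h, a rise of 0.38 (adjusted p = 0.00021 in limma) to within 0.04 of 0 h. MiR-34c rose by 0.40 from 10.21, 10.04 and 10.06 to 10.47, 10.51 and 10.53. MiR-34b-3p, cut from the transcript that gives miR-34c, ran the opposite way. It stood at 10.70, 10.65 and 10.76 at 2 h and fell to 10.30, 10.33 and 10.24 at 5 h, a step of −0.42 (adjusted p = 3.3e-05 in limma). Each of these 3 calls held under all 20 alternatives.

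Other recovered dips came from several families. MiR-30a, a repressor of the autophagy gene beclin 1, rose by 0.39 from 10.41, 10.43 and 10.46 to 10.77, 10.80 and 10.90. MiR-143, a mesenchymal miRNA, rose by 0.31 at a mean of 12.36 at 2 h, and miR-140, known from cartilage, by 0.34. With the arrays shifted to 1 median neither kept both the early call and that of the step. MiR-140 also did not keep both with quantile normalization or without the second arrays of both 0 h and 5 h. MiR-29b, which represses collagen genes, rose by 0.58 from 6.77, 7.20 and 7.04 to 7.40, 7.45 and 7.89 (adjusted p = 0.016 in limma), a call lost without the first 2 h array (0.47, adjusted p = 0.099) or the third 5 h array (0.42, adjusted p = 0.074), while miR-29a and miR-29c, with the same seed, had 0.02 and −0.24 and were not called. MiR-301a rose by 0.50 (adjusted p = 0.0038 in limma) and its seed mate miR-130b by 0.38 (adjusted p = 0.0033), though miR-130b had not been called at 2 h. At 10 h miR-130b was higher still, 0.67 above 0 h (adjusted p = 2e-05). MiR-493, counted among the 24, was at or below the background limit on all 12 arrays, so no size is given for it.

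Among the called rises above 1 on the log2 scale, 3 of 4 came from the rodent miR-466, miR-467, miR-669 and miR-297 families, most of whose genes lie as repeated copies in an intron of Sfmbt2. Of 54 measured, 4 were called higher in the step, or 7.41% against 5.86% of all tested, none was called lower, and their median step was 0.18 against 0 over all 717. Of the 54, 39 were above background on all 6 arrays, where 19.6% of probe sets were called in either direction. At 2 h 7 of the 54 were called lower, and 2 of these were recovered dips. MiR-466f-3p read 6.73, 6.64 and 6.69 at 2 h and 8.08, 8.56 and 8.02 at 5 h, a step of 1.54 (2.9-fold, standard error 0.245, adjusted p = 0.00052 in limma). The 5 h arrays lay far above those at 2 h but within the range at 0 h, which ran from 7.22 to 8.56. MiR-669n rose by 1.08 (adjusted p = 0.0033 in limma) and miR-466j by 0.55 (adjusted p = 0.0078), from 6.05, 6.08 and 6.11 to 6.65, 6.61 and 6.65.

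MiR-466i was called at 1.28 (adjusted p = 0.047 in limma), with its highest 5 h value, 7.22, on the second array. The call of miR-466i was lost under 9 of 20 alternatives, among them leaving out any 1 of the 2 h arrays (adjusted p from 0.065 to 0.21) or the third 5 h array (0.086). Its step without the second 5 h array was 1.04 at an adjusted p of 0.19, while miR-466f-3p had 1.37 at 0.0043 and miR-669n 0.88 at 0.019. The copies share much of their sequence, so reads of 1 probe set may include RNA of another, and the 4 are not independent.

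MiR-1187, mapped to chromosome 5 but of a like repeat of U and G, went from 4.93, 5.25 and 4.72 at 2 h to 6.08, 6.54 and 6.29 at 5 h. The 2 h arrays were below and the 5 h arrays above all 3 at 0 h, which ran from 5.40 to 5.66. Its step of 1.34 was 2.53-fold (adjusted p = 0.00012 in limma) and the overshoot 0.73 (adjusted p = 0.022). At 10 h the difference from 0 h was 0.15 and not called.

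Among the 20 reversed rises the median step was −0.37, between −1.13 and −0.16, after a median early difference of 0.28. At 5 h their median difference from 0 h was −0.03. Against 0 h, 18 were not called at 5 h and 2 were lower, and at 10 h 12 were not called, 3 were higher and 5 lower. The fall was 105% of the early rise in the median, from 74.8% to 235%. Without the second 5 h array 18 of the 20 kept both calls, all but miR-193b and miR-543, and without the second arrays of both 0 h and 5 h 13 did. With the arrays shifted to 1 median 4 did, which were miR-10b, miR-1959, miR-690 and miR-2145.

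The miR-10 pair is encoded inside the Hox gene clusters, and both steps were called under all 20 alternatives, while the early rise and fall of miR-10a were not both called with the arrays shifted to 1 median. MiR-10b read 11.35, 11.30 and 11.26 at 0 h, 11.56, 11.72 and 11.72 at 2 h, then 10.98, 11.02 and 10.99 at 5 h. The 2 h arrays were all above and the 5 h arrays all below those at 0 h. The step was −0.67 (standard error 0.048, 0.629 of the 2 h level, adjusted p = 2.9e-07 in limma), and relative to 0 h miR-10b stood at −0.31 after 5 h (adjusted p = 0.00087) and −0.32 after 10 h (adjusted p = 0.00031).

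MiR-10a fell from 10.48, 10.63 and 10.60 to 10.16, 10.25 and 10.19, a smaller step of −0.37 (adjusted p = 8.4e-05 in limma) to a level at 5 h that was not called against 0 h. The second strand of the miR-10b hairpin fell alongside, with −0.57 for miR-10b* (adjusted p = 0.0025 in limma) after no called change at 2 h. In the list of miR-10 and miR-196 these made 3 of 6 called lower (50%, against 4.88% of all tested). All 6 were above background on all 6 arrays, where 19.6% of probe sets were called in either direction. The same count called lower was found without the second 5 h array and with the arrays shifted to 1 median.

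MiR-149, which in human lies in an intron of the glypican gene GPC1, fell from 11.21, 11.16 and 11.23 to 10.73, 10.81 and 10.56. All 5 h arrays were also below the lowest at 0 h, 10.92. The step was −0.50 (0.706 of the 2 h level, adjusted p = 2.8e-05 in limma), to 0.29 under 0 h (fitted −0.29, adjusted p = 0.0064) and −0.38 at 10 h. The probe set for its hairpin precursor fell by as much, −0.55 from a mean of 7.05 to 6.51 (adjusted p = 0.037 in limma), and was 1 of 4 precursor probe sets called of 690 (0.58%).

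MiR-1959 had the largest reversal among miRNAs above background on all arrays of both times. It read 7.98, 7.80 and 7.94 at 0 h, 8.67, 8.71 and 8.53 at 2 h, then 7.73, 7.62 and 7.65 at 5 h, so that the 5 h arrays lay below both earlier times. The step was −0.97 (adjusted p = 8.9e-07 in limma), and by 10 h the values had returned to 8.23, 8.11 and 8.18, 0.51 above 5 h (adjusted p = 0.0015). MiR-690 took the same course at high level, from 13.25, 13.50 and 13.25 at 2 h to 12.92, 12.84 and 13.05 at 5 h and 13.17, 13.34 and 13.34 at 10 h.

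Abundant miRNAs were also among the smaller reversals. MiR-214, a fibroblast miRNA cut from the Dnm3os transcript, fell by 0.28 from 13.03, 12.93 and 13.02 to 12.80, 12.80 and 12.54, and miR-125a-5p by 0.16 from 13.86, 13.88 and 13.98 to 13.74, 13.77 and 13.73 (adjusted p of 0.015 and 0.0074 in limma). With the arrays shifted to 1 median their adjusted p were 0.18 and 0.48, and miR-214 also lost its call without the first or the third 2 h array (adjusted p of 0.067 and 0.057). MiR-351, which has the miR-125 seed CCCUGAG but lies in the cluster of miR-322 and miR-503 on the X chromosome, fell by 0.38 (adjusted p = 0.0008). MiR-125b-5p, the most abundant of that seed, gave 14.59, 14.58 and 14.58 at 2 h and 14.56, 14.57 and 14.57 at 5 h, and its step of −0.02 was not called. MiR-181a was called at −0.20 although its arrays overlapped, with 11.65 on the second array at 2 h and 11.68 on the second at 5 h, and lost the call under 11 of 20 alternatives. From the imprinted Dlk1-Dio3 region, miR-494 fell by 0.36 and miR-543 by 1.13, the latter from 4.38, 4.35 and 4.54 to values near the background limit. Without the second 5 h array miR-543 had −0.98 at an adjusted p of 0.087 in limma, and its call was also lost without any 1 of the 2 h arrays (adjusted p from 0.052 to 0.085). That of miR-494 was lost under 4 of 20 alternatives, among them leaving out the first 2 h array (−0.32, adjusted p = 0.071).

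In 2 seed families calls were made in both directions with the deposited values, though with the arrays shifted to 1 median neither had a called fall. Of 6 miRNAs above background with the miR-15/16 seed AGCAGCA, which restrains cyclin D1 and BCL2, 3 rose and 1 fell. Of all probe sets above background on all 6 arrays, 19.6% were called in either direction. MiR-497 went from 7.71, 7.77 and 7.74 to 8.13, 8.14 and 8.21, a step of 0.42 (adjusted p = 0.0064 in limma). MiR-195, from the same cluster on chromosome 11, went from 10.12, 10.09 and 10.20 to 10.55, 10.48 and 10.39, a step of 0.34 (adjusted p = 0.00036). Neither had been called at 2 h, and both were above 0 h at 5 h, by 0.47 and 0.29.

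MiR-15b, from another cluster, fell by 0.19 from 13.13, 13.13 and 13.24 to 13.02, 12.96 and 12.95 (adjusted p = 0.0033 in limma), a call that either other scaling removed. MiR-15a rose by 0.22 with a call lost under 12 of 20 alternatives, and miR-16, the most abundant, had 0.04. With the miR-30 seed GUAAACA, miR-30a rose as above, and miR-30c fell by 0.21 from 12.71, 12.71 and 12.70 to 12.46, 12.48 and 12.55 (adjusted p = 0.0008 in limma). The call of miR-30c was lost with the arrays shifted to 1 median (adjusted p = 0.18) and without a variance trend (adjusted p = 0.057). With the deposited values, over the 17 seed families with at least 2 members above background and at least 1 called, 5 had 2 or more calls all in 1 direction, 2 had calls in both directions, and the rest had a single call. Close members of a family may be read by each other's probe sets, so these calls cannot be taken as independent. With the arrays shifted to 1 median, miR-17, miR-20b, miR-27b and miR-125a-5p, from families with calls in 1 direction, also lost their calls.

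**Figure D3:**
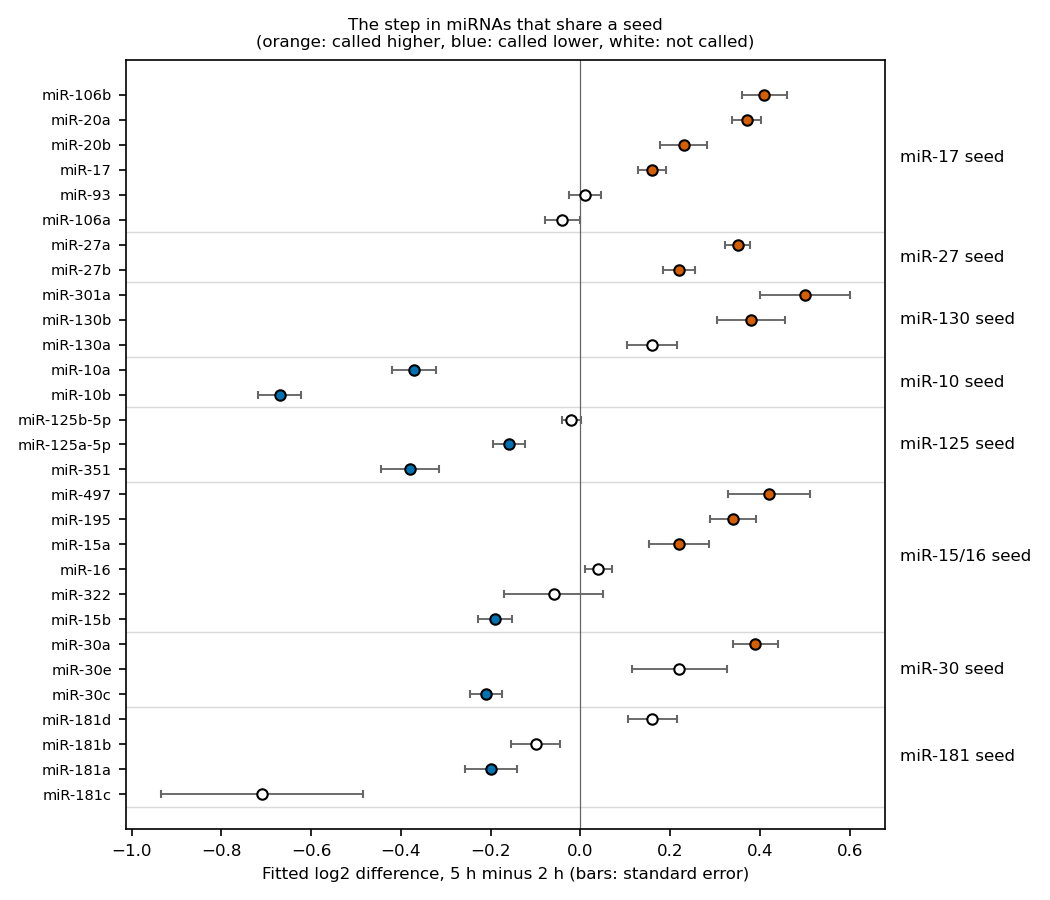
Fitted log2 difference between 5 h and 2 h (x axis) with its standard error for the miRNAs above background in 8 seed families (y axis). Orange points were called higher, blue lower and white not called, in limma with 3 arrays at each time. The miR-17, miR-27 and miR-130 seeds have called members only above 0 and the miR-10 and miR-125 seeds only below it. The miR-15/16 and miR-30 seeds have both, though their called falls were lost with the arrays shifted to 1 median. That shift also ended the calls of miR-17, miR-20b, miR-27b and miR-125a-5p.

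Both strands of a hairpin were above background for 69 hairpins. At least 1 strand was called in 28 of them and both in 4. The strands moved together for miR-10b and miR-10b*, miR-27a and miR-27a*, and miR-28 and miR-28*, and apart for miR-324. MiR-324-5p rose from 8.99, 8.75 and 8.94 to 9.22, 9.30 and 9.17, and miR-324-3p fell from 7.95, 7.86 and 8.07 to 7.51, 7.43 and 7.59. No array of either strand overlapped between the times, and the steps were 0.34 and −0.45 (adjusted p of 0.004 and 0.0058 in limma). The difference between the strands was not itself tested. In the other 24 hairpins a single strand passed, as with miR-466f-3p at 1.54 and miR-466f-5p at 0.35. A missing call does not show that a strand stayed level. In most of these hairpins the uncalled strand had a difference of the same sign, as with miR-20a at 0.37 and miR-20a* at 0.92. In others it had the opposite sign, as with miR-18a at 0.72 and miR-18a* at −0.16.

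**Figure D4:**
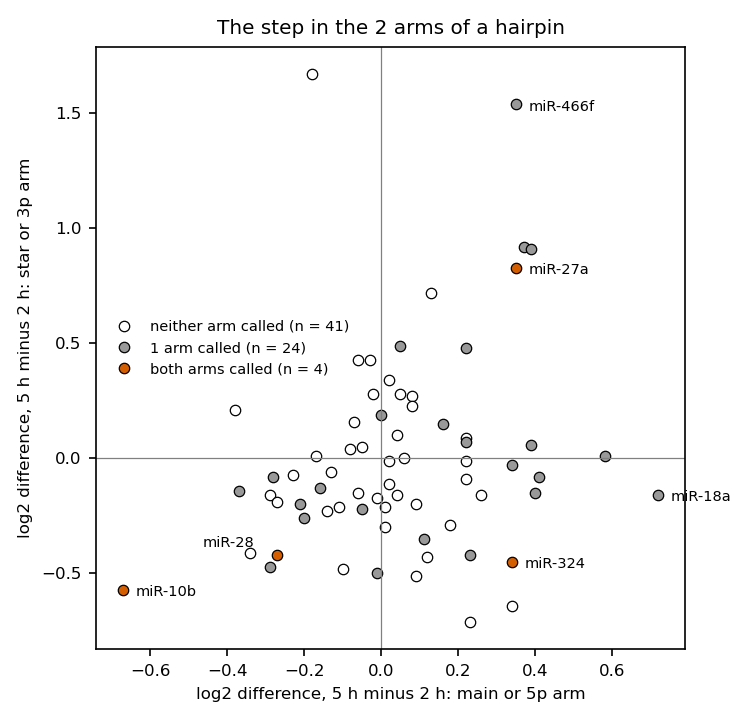
Fitted log2 difference between 5 h and 2 h of the star or 3p strand (y axis) against that of the main or 5p strand (x axis) for 69 hairpins with both strands above background on all 6 arrays. Each point is a hairpin, orange where both strands were called, grey where 1 was and white where neither was. Of the 4 orange points, miR-324 alone lies in a quadrant of opposite signs.

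Only 5 miRNAs continued in the direction they had taken by 2 h. The epithelial miRNAs miR-205 and miR-200c, repressors of the ZEB factors, were the steepest falls of the step. MiR-205 read 9.30, 9.16 and 9.18 at 0 h, 5.73, 5.06 and 5.59 at 2 h, then 2.09, 2.47 and 2.45 at 5 h. The groups were far apart, and the 5 h arrays were all below the background limit, so the fall was at least 5.16-fold, from the 2 h mean over the limit (fitted step −3.12, adjusted p = 2.9e-07 in limma). MiR-200c fell at least 2.31-fold from 4.06, 4.30 and 4.54 to 2.32, 1.88 and 2.17 (fitted step −2.18, adjusted p = 3.2e-05). These were 2 of 7 epithelial miRNAs called lower (28.6%, against 4.88% of all tested), and 5 of the 7 were below the limit at both times. The summed level of the 7 went from between 9.64 and 9.77 at 0 h to between 6.12 and 6.51 at 2 h and between 4.61 and 4.69 at 5 h. Whether this reflects a change within fibroblasts or RNA of other cells was not tested.

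MiR-1946a and miR-1946b were the rises that continued. MiR-1946a read 7.44, 7.52 and 7.55 at 0 h, 7.86, 7.90 and 7.84 at 2 h, then 8.61, 8.59 and 8.66 at 5 h, so that each time was clear of the one before. Its step was 0.76 (1.69-fold, adjusted p = 4e-06 in limma). MiR-1946b rose by 0.68 (adjusted p = 8.2e-05 in limma). Both then fell by 10 h, by 0.83 and 0.70, to levels still above 0 h by 0.29 and 0.38 (adjusted p of 0.015 and 0.0099). The fifth, miR-199b*, fell by 0.22 in the step and lost its call under 11 of 20 alternatives.

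Of the 28 miRNAs called in the step but not at 2 h, the largest changes beyond those already given, among miRNAs above background on all 3 arrays of a time, were a rise of 0.91 in miR-455*, from 4.35, 4.73 and 4.73 to 5.69, 5.32 and 5.52 (adjusted p = 0.016 in limma), and a fall in miR-450b-3p. The call of miR-455* was lost under 4 of 20 alternatives, among them quantile normalization (0.67, adjusted p = 0.13) and leaving out the first 2 h array (0.78, adjusted p = 0.085) or the first 5 h array (0.82, adjusted p = 0.076). MiR-450b-3p, from the cluster of miR-322 and miR-503, went from 4.11, 3.73 and 3.87 to below the limit on all 3 arrays, at least 1.75-fold lower (adjusted p = 0.0092). That cluster had 3 of 11 members called lower (27.3%, against 4.88% of all tested), with miR-351 and miR-503* beside it. MiR-503* lost its call under 10 of 19 alternatives. MiR-532-3p and the reversed rise miR-501-3p, from 1 cluster on the X chromosome, fell by 0.50 and 0.47 with all arrays apart (adjusted p of 0.004 and 0.0047), and their 5p strands were not called. MiR-705 rose by 0.64 with a call lost under 8 of 20 alternatives, and miR-181a-2* fell to below the limit with one lost under 9 of 19. MiR-146b, a negative regulator of NF-kB signalling, fell by 0.32 (adjusted p = 0.0088), not called without the second 5 h array.

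At 5 h, 52 of the 77 step miRNAs were not called against 0 h. Of the 42 that rose, 28 were not called against 0 h at 5 h, 12 were higher and 2 lower, where 4.32% of all tested were higher and 4.04% lower. Of the 35 that fell, 24 were not called and 11 were lower. At 10 h against 0 h, a comparison that shares no array with the step, 10 of the 42 rises were higher and 5 lower, and 3 of the 35 falls were higher and 13 lower, against 5.58% higher and 7.11% lower of all tested. Between 5 h and 10 h, 10 of the 42 rises fell and 1 rose on, and 4 of the 35 falls rose and 1 fell on, against 1.81% higher and 3.77% lower of all tested, a comparison that shares the 5 h arrays with the step.

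Other families had no call. None of 9 let-7 miRNAs was called, with steps from −0.19 to 0.08 and a median of 0.02, nor miR-21, miR-221 or miR-222, nor the 3 members of the cluster of miR-183, miR-96 and miR-182. Of 10 miRNAs that the study names for the UPR, 3 rose (30%, against 5.86% of all tested), all of them recovered dips. These were miR-17, miR-34a and miR-106b. The list mixes miRNAs that the paper links with the UPR in opposite directions. The paper associates Ire1, a UPR sensor, with inhibition of miR-17 and miR-34a. It describes PERK, another sensor, as apparently linked with suppression of the cluster of miR-106b and induction of miR-211, miR-204 and miR-708. Whether the rises reflect the UPR was not tested. With the arrays shifted to 1 median 2 were called higher, and miR-17 lost its call with either other scaling. Of the 10, 8 were above background on all 6 arrays, where 19.6% of probe sets were called in either direction. MiR-708, induced through PERK and CHOP, had 10.32, 10.20 and 10.30 at 2 h and 10.36, 10.44 and 10.26 at 5 h. Those groups overlapped, and the step of 0.08 was not called (adjusted p = 0.45 in limma). MiR-211 and miR-204 were below the background limit on every array at 2 h and 5 h, except the second 5 h array for miR-211.

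The miRNAs of the miR-216b locus were not called in this step. The paper reports from the arrays that miR-216b and miR-217 were raised over the time course, and it followed miR-216b further. It places most miR-216b accumulation between 5 h and 10 h. Those are other comparisons, which the step from 2 h to 5 h does not test. The median difference from 0 h over the 3 members of the locus was 0.18 at 2 h, with none called, and 0.39 at 5 h. MiR-216b read 5.54, 5.47 and 5.50 at 2 h and 5.53, 5.50 and 5.37 at 5 h. The arrays overlapped and the fitted difference was −0.04 (standard error 0.157, adjusted p = 0.92 in limma). MiR-217 read 4.44, 4.49 and 4.43 at 2 h and 4.76, 4.52 and 4.87 at 5 h, all higher, with a step of 0.26 that was not called (standard error 0.199, adjusted p = 0.51).

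The hairpin probe sets, which read precursors, showed few changes. Of 690, 3 were called higher and 1 lower, with 56 at an unadjusted p under 0.05 and 139 above the limit on all 6 arrays. Beside mir-149, the called ones were 2 copies of mir-466f, at 0.67 and 0.58, whose other 2 copies had 0.72 and 0.71 at adjusted p of 0.34 and 0.17 in limma, with 0.30 at 0.75 on a second probe set of the last copy. The other was mir-451, a blood miRNA, at 0.91 with 3 of 6 arrays above the limit, while mature miR-451 had −0.21 and was not called. A second probe set of the mir-451 precursor, with 4 of 6 arrays above the limit, had 0.57 and was not called (adjusted p = 0.34 in limma). For miR-18a, miR-20a, miR-10a, miR-10b, miR-205 and miR-200c the precursor was below the limit on all 6 arrays, so the step of the mature strand had no precursor value to be set beside. Where the precursor could be read, as for miR-27a, miR-34c and miR-106b, its steps of 0.14, −0.08 and −0.09 were not called.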

How the data were processed

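Total RNA from NIH3T3 cells was hybridised by the authors to Affymetrix GeneChip miRNA arrays, and RMA was used by the authors to obtain the deposited log2 values, 1 for each probe set on each array. Versions of RMA and of the array, and its annotation build, were not given in the sources used here. Another deposited table held the same log2 values (largest difference 0) beside comparisons by the authors, which were not used.

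All 12 arrays were mapped by their labels. The 717 mature mouse probe sets entered 1 linear model (limma 3.58.1, R 4.3.3) with the 4 times as levels and a prior variance that follows mean level, with two-sided tests and a threshold of 0.05 after Benjamini-Hochberg adjustment. The 690 hairpin probe sets were fitted apart, and 5 with older names were left out. The fit was run on simulated data with independent noise on each array. That simulation held no error shared by the arrays of a time, so it does not bear on such errors. MiRNAs were named where they were among the 12 largest called rises or falls without overlap and above background at 1 time, the 12 largest called against their change at 2 h in each direction, called members of family lists, or miRNAs the paper names. Any other name was chosen after its values were seen: miR-140, miR-324-5p, miR-324-3p, miR-28, and uncalled relatives set beside a named miRNA. The comparison, its members and the lists were chosen with earlier results of these data known. Where the arrays of 1 time were all below the background limit, a fold is given as at least the mean of the other time over that limit. The number of arrays limits the precision. Alternatives covered scaling, filters, variance model, test, arrays left out and the replicate number as a block.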

Additional observations from a re-analysis of the deposited data

Results flagged for a closer look

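In 5 miRNAs the change from 0 h was called in 1 direction at 2 h and in the other at 5 h, and the test of the difference between those changes is the step itself (limma, 3 arrays at each time). The 5 were picked by those opposite calls, so a small p in the step largely follows from the choice and is no separate support. MiR-1187 was 0.60 below 0 h at 2 h (fitted −0.60) and 0.73 above it at 5 h, a difference of 1.34 (adjusted p = 0.00012). MiR-2132 and miR-24-2* likewise went from −0.16 to 0.37, a difference of 0.53 (adjusted p = 2.6e-06), and from −0.27 to 0.22, a difference of 0.49 (adjusted p = 3.2e-05). MiR-10b went from 0.36 to −0.31, a difference of −0.67 (adjusted p = 2.9e-07), and miR-149 from 0.21 to −0.29, a difference of −0.50 (adjusted p = 2.8e-05). At 10 h, miR-10b and miR-149 were still lower than at 0 h and miR-2132 still higher, and miR-1187 and miR-24-2* were not called. Without the second 5 h array miR-2132 did not keep its calls both at 2 h and in the step. Without the second arrays of both 0 h and 5 h, miR-2132, miR-1187 and miR-149 did not keep both. With the arrays shifted to 1 median miR-10b alone of the 5 kept both.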

How the results depend on the processing

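As deposited, 42 were called higher, 35 lower, 24 dips recovered and 20 rises reversed, with 25 and 31 step miRNAs also called against 0 h at 5 h and at 10 h. In that order, the arrays shifted to 1 median gave 33, 18, 14, 4, 13 and 14, the variance model without a trend 29, 20, 13, 8, 15 and 17, and the methods' t-test after Benjamini-Hochberg adjustment 18, 14, 9, 4, 6 and 7 (58 and 61 at an unadjusted p under 0.05 in the step). In the brighter 50% of probe sets, which are fewer tests, 38 step miRNAs were called at 5 h against 0 h. A fold of at least 1.5, chosen after seeing the data, left 12 higher and 8 lower. Leaving out 1 array at 0, 2 or 5 h gave 34 to 50 higher, 28 to 42 lower, 17 to 23 dips recovered, 11 to 21 rises reversed, 15 to 35 called at 5 h and 21 to 36 at 10 h. The 11 and 13 reversed rises came without the first and the third 2 h array, and those called at 5 h were 16 when the first 5 h array was left out, 15 for the second, and 16 for the first 0 h array. Quantile normalization (32 and 35 in the step), the filter at the background limit, robust estimation, array weights, only the 2 h and 5 h arrays and leaving out both second arrays moved no count by over 1.5 times, and the hairpin counts were 3 and 1 in each scaling.

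Same-numbered arrays at 2 h and 5 h correlated at 0.05 to 0.06 in their deviations, so the numbers were not taken to pair the arrays of those times. The arrays at 0 h were not compared in this way. Whether the second arrays at 0 h and 5 h share an effect was not tested. The replicate block gave 39 higher, 31 lower, 19 dips recovered, 17 rises reversed, and 20 and 26 called against 0 h. Of 60 named miRNAs called in the step, 21 kept the call under all alternatives, and the sign turned in 1, miR-23a, at 0 under quantile normalization. The causes were not tested. Below the background limit the arrays give only bounds.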
